A study of Mus musculus with 30 samples.

Results

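Genes that carry out or restrain apoptosis and necroptosis were examined in hippocampi of mice lacking tissue inhibitor of metalloproteinases 2 (TIMP2) and of wild-type (WT) mice. The set was chosen by gene name, from the BCL2 family, the caspases, death receptors, inhibitor of apoptosis proteins, the necroptosis kinases and the p53 axis, and held 41 of the 49315 genes in the table of counts. After the filter on low counts, 39 of the 41 could be tested, and the necroptosis genes Ripk3 and Mlkl could not. The hippocampi came from 6 male and 7 female TIMP2 KO mice (13 in all) and from 10 male and 7 female WT mice (17 in all), labelled as strain C57BL/6J, and the labels name no treatment. The TIMP2 KO is a constitutive knockout of Timp2 that affects all cells, obtained from the Jackson Laboratory. The labels give no age for these mice. The measurement was poly(A) RNA of the whole hippocampus, so fewer cells of a type and less RNA per cell cannot be told apart.

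In the mitochondrial route to apoptosis, BH3-only proteins sense damage and free or activate BAX and BAK, which open the outer mitochondrial membrane unless BCL2 and its antiapoptotic relatives hold them back. Released cytochrome c binds APAF1 to form the apoptosome, which activates caspase-9 and then the executioner caspases, while XIAP blocks them and is itself opposed by DIABLO and HTRA2. In the death receptor route, FAS or TNF receptor 1 recruits FADD or TRADD and caspase-8. Where caspase-8 is inactive, RIPK1 can instead activate RIPK3, which phosphorylates MLKL, and MLKL ruptures the plasma membrane. In the adult hippocampus apoptosis is best known for removing most newborn granule cells of the dentate gyrus.

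Total counts lay between 18345517 and 41081083 per mouse, and 16486 genes passed the filter. Timp2 itself was measured at 130 to 171 CPM (counts scaled to library size) in TIMP2 KO and at 256 to 380 CPM in WT mice, without overlap of the groups. The 8 neuron markers summed to between 10310 and 12490 CPM over all mice, and the 8 microglia markers to between 392.1 and 482.9 CPM. Choroid plexus markers summed to between 128.5 and 1127 CPM (median 160.5) in TIMP2 KO and to between 122.5 and 175 CPM (median 153.9) in WT mice. The mean log2 CPM of the tested ones was highest in TIMP2 KO mice 11, 5, 1 and 20, at 5.74, 4.29, 4.15 and 3.92. In WT mice it was at most 3.43. Immediate early genes summed to between 271 and 776 CPM in TIMP2 KO and to between 231 and 684.5 CPM in WT mice. By edgeR's quasi-likelihood test, 4 of 5 tested choroid plexus markers had an unadjusted p under 0.05 and were higher in TIMP2 KO. So were 9 of 10 immediate early genes, against 2.47% of all genes. After adjustment, 1 gene of these lists passed, a choroid plexus marker.

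The promoters of the 3 genes that passed the unadjusted threshold between genotypes (Cycs, Aifm1 and Casp8) and of Cdkn1a, the best-known target gene of p53, are shown first, since these genes recur in the results. Each is the plus or minus strand of a RefSeq window in GRCm38.p6, 5′ to 3′, from 250 bases before to 50 bases after a transcription start. For Cdkn1a, the window of its upstream start is shown. Cycs is read from chr6:50566520-50566819 on the minus strand, Aifm1 from chrX:48513514-48513813 on the minus strand, Casp8 from chr1:58802252-58802551 on the plus strand and Cdkn1a from chr17:29090729-29091028 on the plus strand. Capitals mark the core of the NRF1 motif (GCATGCGC), the cyclic AMP response element (TGACGTCA), the CCAAT box and, in Cdkn1a, a pair of CATG cores with 6 bases between them, the spacing found in a p53 half-site pair.
Cycs: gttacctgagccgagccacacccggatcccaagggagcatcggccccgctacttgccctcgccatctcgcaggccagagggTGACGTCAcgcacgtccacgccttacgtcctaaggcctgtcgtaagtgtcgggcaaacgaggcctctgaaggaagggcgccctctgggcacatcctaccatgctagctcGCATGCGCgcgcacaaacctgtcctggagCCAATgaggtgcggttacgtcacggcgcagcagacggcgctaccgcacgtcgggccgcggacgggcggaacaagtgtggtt
Aifm1: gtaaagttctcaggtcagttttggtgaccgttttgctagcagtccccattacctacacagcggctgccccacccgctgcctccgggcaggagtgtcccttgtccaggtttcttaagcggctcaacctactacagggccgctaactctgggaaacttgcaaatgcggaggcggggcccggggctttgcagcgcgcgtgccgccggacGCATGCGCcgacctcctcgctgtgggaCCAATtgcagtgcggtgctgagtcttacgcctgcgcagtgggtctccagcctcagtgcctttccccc
Casp8: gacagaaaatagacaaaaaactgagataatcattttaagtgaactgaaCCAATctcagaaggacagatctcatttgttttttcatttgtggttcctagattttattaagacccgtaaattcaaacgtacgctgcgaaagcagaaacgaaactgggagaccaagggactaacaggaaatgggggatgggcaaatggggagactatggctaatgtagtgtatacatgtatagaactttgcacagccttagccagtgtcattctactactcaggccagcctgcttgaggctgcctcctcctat
Cdkn1a: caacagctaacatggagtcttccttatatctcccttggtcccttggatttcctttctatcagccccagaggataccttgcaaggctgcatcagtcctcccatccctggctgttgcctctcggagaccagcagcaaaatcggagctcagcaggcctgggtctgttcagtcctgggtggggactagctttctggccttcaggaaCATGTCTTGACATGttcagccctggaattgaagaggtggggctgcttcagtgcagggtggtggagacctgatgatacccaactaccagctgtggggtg

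The motifs were chosen after these sequences were seen, and matches on both strands were counted. The window of Cycs held the cyclic AMP response element from base 82, the NRF1 core from base 191 and a CCAAT box from base 220. Aifm1 held the NRF1 core from base 207 and a CCAAT box from base 234, and Casp8, at a start inside the gene, held a CCAAT box from base 49. Shares are per window, and 37 members held 49 of the 32851 mouse promoter windows. The NRF1 core occurred in 2.71% of all windows and in 7 of the 49 (14.3%), each of a different member (Aifm1, Apaf1, Bax, Birc6, Cycs, Fadd and Pdcd4). The cyclic AMP response element occurred in 1.79% of all windows and in 2 of the 49 (4.08%, Birc2 and Cycs). The CCAAT box occurred in 37.4% of all and in 16 of the 49 (32.7%), and the GC box GGGCGG in 35.7% and in 33 (67.3%). The spaced CATG pair occurred in 0.712% of all windows and in 1 of the 49 (2.04%), that of the upstream start of Cdkn1a, from base 203. The other window of Cdkn1a lacked it. A match describes the letters and not binding. No windows were given for Bnip3l, Htra2, Pmaip1 and Tradd.

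The members differed widely in level. Genes were compared in CPM per kilobase of exon. The length is that of all annotated exons and not of the transcripts present, so the order is approximate. Bnip3, Bcl2l2 and Bax also share 22.3%, 13.3% and 12.2% of their exon bases with other genes. The mitochondrial receptors of mitophagy Bnip3 and Bnip3l were highest, with means over the 30 mice of 45.3 ± 1.70 (SD) and 43.4 ± 1.13. The ranges of 1 SD around each mean overlapped. The antiapoptotic Bcl2l2, which encodes BCL-W, followed at 33.9 ± 0.823, then Pdcd4, a translation inhibitor, at 30.5 ± 1.31 and Cycs at 28.9 ± 1.28. On this scale, BCL-W, BCL-XL (Bcl2l1, 23.1 ± 1.008) and MCL1 (23.0 ± 1.34) transcripts were each far above Bcl2 itself (1.64 ± 0.132). The pore former Bax was measured at 19.2 ± 0.957 and Bak1 at 4.42 ± 0.353.

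At the other end stood the necroptosis genes. Ripk1 was measured at 0.470 ± 0.0539 CPM per kilobase, Ripk3 at 0.156 ± 0.0485 and Mlkl, which encodes the membrane-rupturing pseudokinase, at 0.0769 ± 0.0386. Ripk3 had 4 to 18 raw counts per mouse and Mlkl 1 to 12, with no mouse at 0. Low levels were also found for Birc3 (0.311 ± 0.0705), Casp6 (0.529 ± 0.0783), Fas (0.539 ± 0.129) and the BH3-only gene Pmaip1 (0.548 ± 0.132). Among the tested caspases the initiator Casp9 was highest at 5.70 ± 0.273, and Xiap was highest among the inhibitors at 12.99 ± 0.537. The order within each role was thus led by Bcl2l2, Bax, Bnip3, Cycs, Casp9, Xiap, Tnfrsf1a, Ripk1, Mdm2 and Pdcd4.

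**Figure D1:**
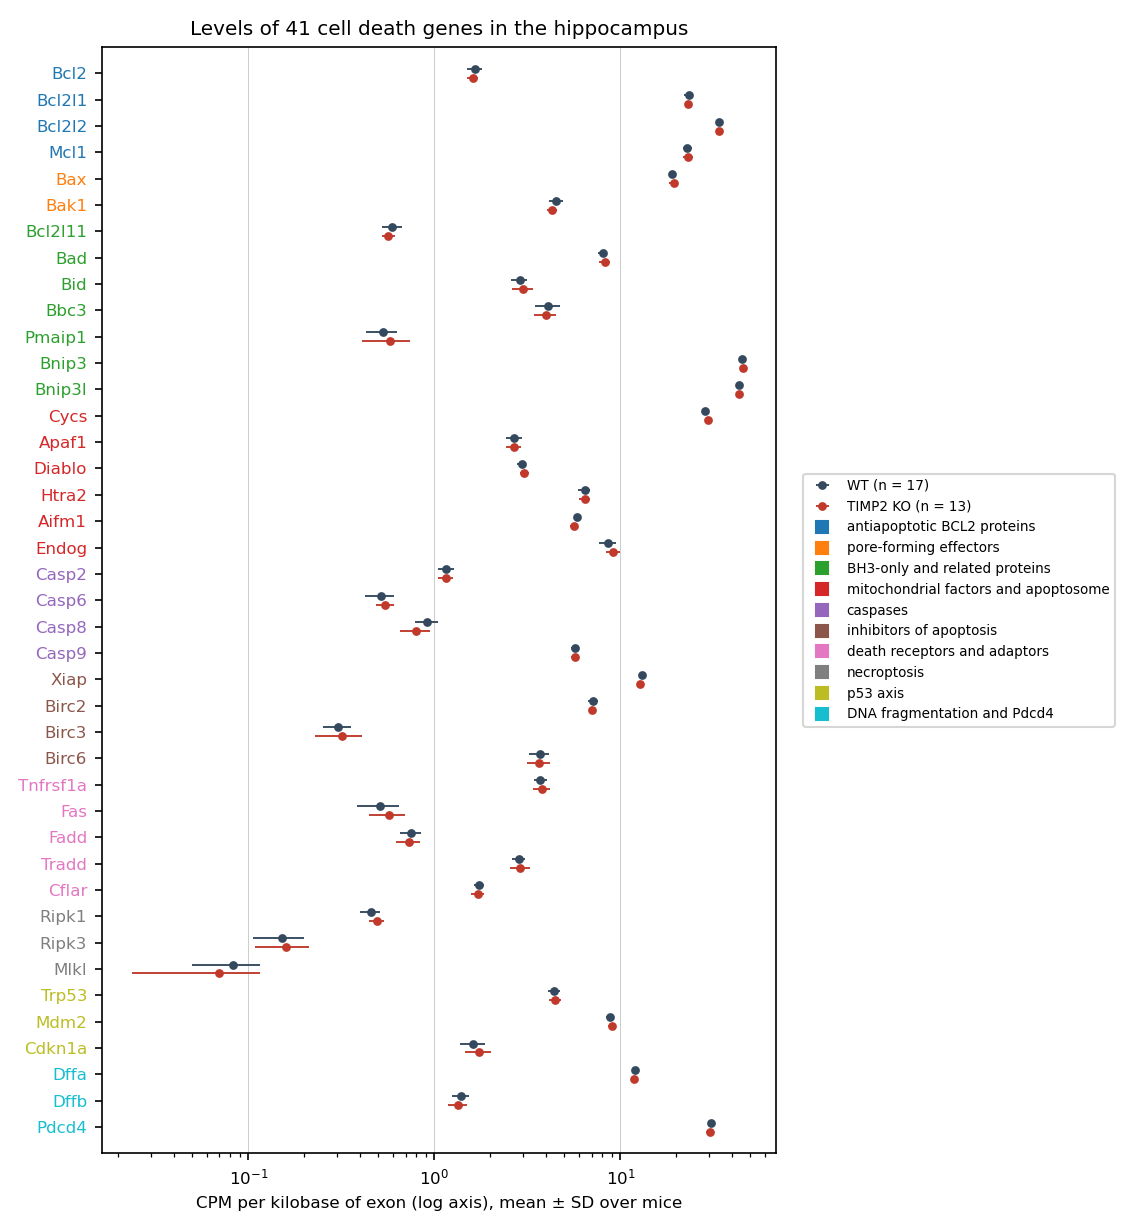
Level of each of the 41 genes in CPM per kilobase of exon on a log axis, as mean ± SD over 17 WT mice (dark) and 13 TIMP2 KO mice (red), with gene names colored by role. Levels run from 0.0769 for Mlkl to 45.3 for Bnip3, and the points of the 2 genotypes lie close together for every gene.

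Whether loss of TIMP2 goes with a shift of the cell death genes was asked by comparing the genotypes with both sexes pooled. Between TIMP2 KO and WT hippocampi, 3 of the 39 members tested (7.69%) had an unadjusted p under 0.05 by edgeR's quasi-likelihood test, 1 of them higher (Cycs) and 2 lower (Aifm1 and Casp8) in TIMP2 KO. Over all 16486 genes, 5.03% passed this threshold, 2.47% higher and 2.56% lower, so the members' share lies near the background. After Benjamini-Hochberg adjustment over all genes, 0 members passed (smallest adjusted p = 0.952 in edgeR), against 0.0546% of all genes. DESeq2 also called 0 members after adjustment and 2 at the unadjusted threshold (Cycs and Casp8).

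The 39 log2 fold changes lay between -0.18 and 0.15, with 21 positive and 18 negative. Their median was 0.0057, against 0.00011 over all genes, and their median absolute value was 0.0314, against 0.0305 over all genes. The 95% interval of the difference lay within 1.1-fold in either direction for 24 of the 39 members and within 1.5-fold for all 39. At 1.2-fold, 34 intervals lay inside, and the 5 that did not were those of Birc3, Casp8, Cdkn1a, Fas and Pmaip1, all with at most 287 counts per mouse.

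**Figure D2:**
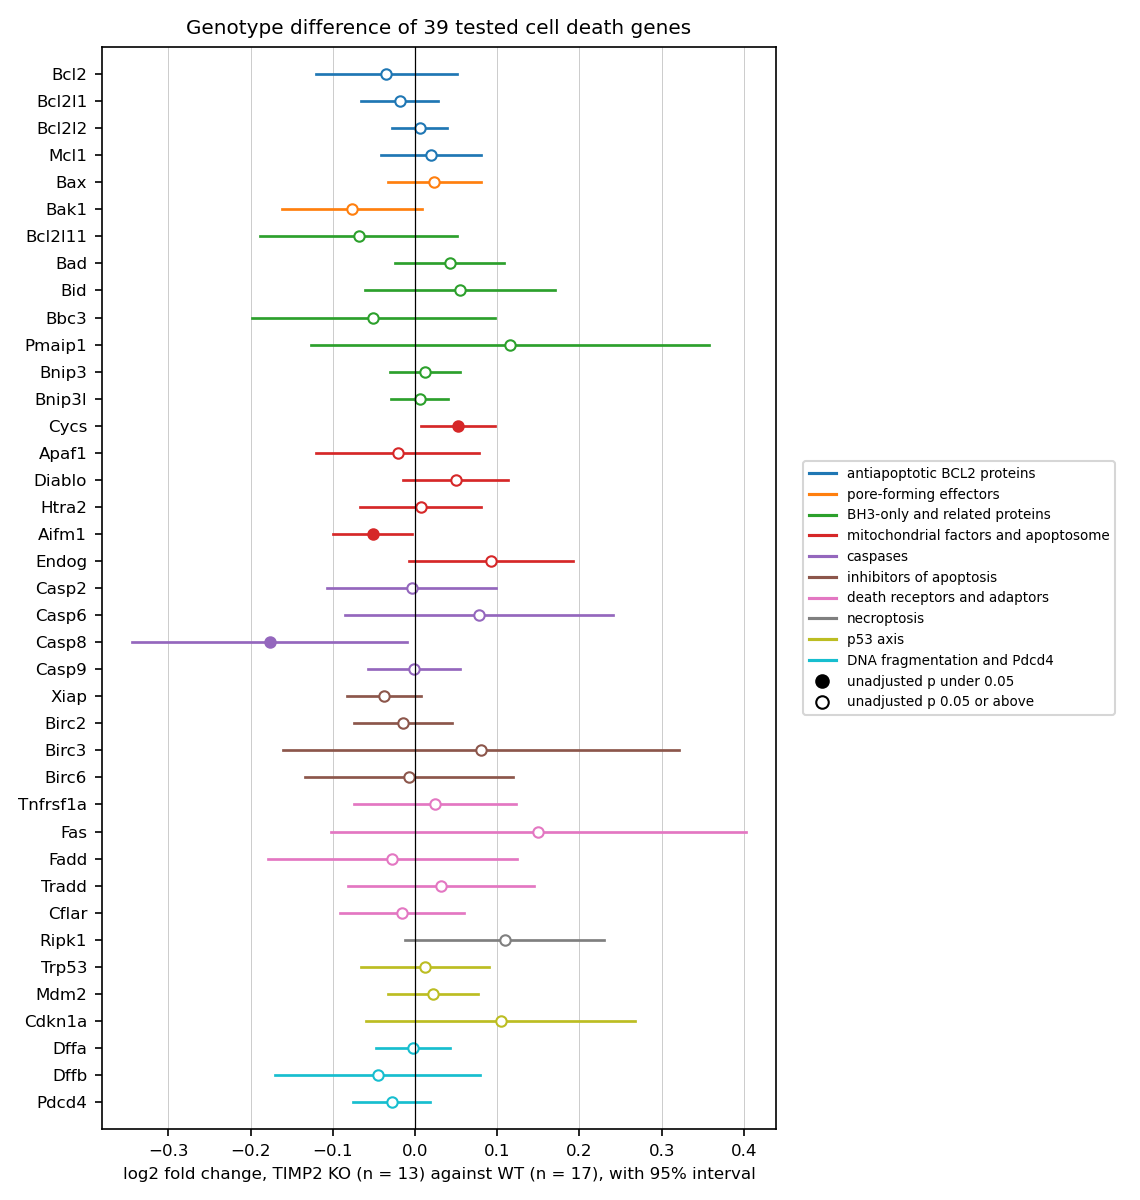
Log2 fold change of TIMP2 KO (n = 13) against WT (n = 17) for the 39 tested genes, ordered and colored by role, with 95% intervals from edgeR. Filled points (Cycs, Aifm1 and Casp8) had an unadjusted p under 0.05, and no interval reaches beyond -0.34 or 0.40.

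Among the antiapoptotic BCL2 proteins, 0 of 4 members passed the threshold. Bcl2 ran from 12.8 CPM through a median of 14.7 to 16.6 CPM in TIMP2 KO and from 12.8 through 15.2 to 17.8 CPM in WT mice. The groups overlapped, and the log2 fold change was -0.035 ± 0.042 (SE, unadjusted p = 0.411 in edgeR). Bcl2l1, Bcl2l2 and Mcl1 had log2 fold changes of -0.019, 0.0055 and 0.019. The 95% intervals of all 4 genes lay within 1.1-fold in either direction.

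Of the pore formers, Bak1 lay lower in most TIMP2 KO mice without passing the threshold. Its CPM ran from 9.43 through a median of 10.1 to 11.5 in TIMP2 KO and from 8.94 through 10.9 to 12.3 in WT mice, and 11 of 13 TIMP2 KO mice lay below the WT median. The log2 fold change was -0.076 ± 0.042 (unadjusted p = 0.0766 in edgeR). Within females alone it was -0.13 ± 0.058 (unadjusted p = 0.0385 in edgeR), and the difference between the sexes had an unadjusted p of 0.242 in edgeR. Bak1 passed the threshold with sex and 8 surrogate variables in the fit (log2 fold change -0.11, unadjusted p = 0.0365 in edgeR), and when WT mouse 6 or 32 or TIMP2 KO mouse 10 or 25 was left out (smallest unadjusted p = 0.0268 in edgeR). Bax had a log2 fold change of 0.024 ± 0.028. The ratio of Bax to Bcl2 per kilobase was 12.0 ± 0.977 (SD) in TIMP2 KO and 11.6 ± 1.27 in WT mice, and that of Bak1 to Mcl1 was 0.186 ± 0.0194 and 0.199 ± 0.0196. In both ratios the genotypes overlapped. Of the exon bases of Bak1, 18.2% are shared with the opposite-strand gene Ggnbp1, and the strand setting of the counting is not given in the sources used here.

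Of the 7 BH3-only and related genes, which convey death signals to the mitochondrion, 0 passed the threshold. Bad, whose product is held inactive by growth factor signaling, ran from 17.6 CPM through a median of 21.6 to 22.5 CPM in TIMP2 KO and from 18.5 through 20.5 to 22.8 CPM in WT mice. Of the 13 TIMP2 KO mice, 10 lay above the WT median, while the lowest of all 30 mice was also TIMP2 KO. The log2 fold change was 0.042 ± 0.032 (unadjusted p = 0.203 in edgeR). The p53-induced genes Bbc3 (PUMA) and Pmaip1 (NOXA) had log2 fold changes of -0.051 ± 0.073 and 0.12 ± 0.12, Bcl2l11 (BIM) of -0.069 ± 0.059 and Bid, the link from caspase-8 to mitochondria, of 0.054 ± 0.057. In females alone Bbc3 was lower in TIMP2 KO at an unadjusted p under 0.05 in edgeR. The difference between the sexes had an unadjusted p of 0.0506 in edgeR. Bnip3 and Bnip3l, the highest of the set, differed by 0.012 ± 0.021 and 0.0057 ± 0.017.

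The mitochondrial factors held 2 of the 3 called members, in opposite directions. Cycs, which encodes cytochrome c (ENSMUSG00000063694, chromosome 6 from 50562563 to 50566538 in GRCm38), ran from 95.7 CPM through a median of 99.7 to 107 CPM in TIMP2 KO and from 88.3 through 97.6 to 104 CPM in WT mice. Of the TIMP2 KO mice, 8 of 13 lay above the WT median, and the groups overlapped. The difference was small, with a log2 fold change of 0.052 ± 0.022 (95% interval 0.0074 to 0.097, unadjusted p = 0.0237 and adjusted p = 0.952 in edgeR). In males the means were 102.5 ± 5.25 (SD, n = 6) in TIMP2 KO and 97.2 ± 4.72 CPM (n = 10) in WT, and in females 98.7 ± 1.78 (n = 7) and 96.5 ± 2.75 CPM (n = 7). The difference went the same way in both sexes, passed the threshold in neither alone (unadjusted p = 0.0543 in males and 0.213 in females, edgeR), and the interaction with sex had an unadjusted p of 0.345 in edgeR. With sex and 8 surrogate variables in the fit, the Cycs difference fell to 0.022 (unadjusted p = 0.286 in edgeR). It passed the threshold no longer without TIMP2 KO mouse 1 or TIMP2 KO mouse 10 (highest unadjusted p = 0.0537 in edgeR).

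Aifm1 encodes apoptosis-inducing factor, a flavoprotein of the mitochondrial intermembrane space that can enter the nucleus (ENSMUSG00000036932, chromosome X from 48474944 to 48513563). It ran from 21.1 CPM through a median of 22.5 to 24.2 CPM in TIMP2 KO and from 22.0 through 23.3 to 24.7 CPM in WT mice. Low values were more frequent in TIMP2 KO, with 9 of 13 mice below the WT median, and the groups overlapped. The log2 fold change was -0.052 ± 0.024 (95% interval -0.099 to -0.0038, unadjusted p = 0.0351 and adjusted p = 0.966 in edgeR). By edgeR's estimate, Aifm1 had the smallest biological coefficient of variation (BCV) of the 39 members, 3.14%. Its observed spread was not the smallest, with an SD of log2 CPM over all mice of 0.059, against 0.035 for Bcl2l2. In DESeq2 the unadjusted p was 0.0658 and in limma voom 0.0720. In edgeR it was 0.0627 without a filter on low counts, 0.0799 in males alone and 0.369 in females alone. The edgeR call was lost in 8 of 30 omissions of a single mouse (WT mice 6, 7 and 31 and TIMP2 KO mice 14, 18, 20, 27 and 30), with an unadjusted p of up to 0.0755.

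Endog and Diablo are named after their values were seen. Endog, the mitochondrial endonuclease G, exceeded the WT median in 11 of the 13 TIMP2 KO mice. Its CPM ran from 8.34 through 9.73 to 11.2 in TIMP2 KO and from 8.08 through 8.85 to 11.6 in WT mice, with a log2 fold change of 0.093 ± 0.049 (unadjusted p = 0.0667 in edgeR). Endog passed the threshold in limma voom (unadjusted p = 0.0351), with log2 total counts as a covariate (unadjusted p = 0.0486 in edgeR) and without WT mouse 4, 6 or 12 or TIMP2 KO mouse 15, 18 or 25 (smallest unadjusted p = 0.0133 in edgeR). Of its exon bases, 35.7% are shared with the opposite-strand gene Spout1. Diablo, an antagonist of XIAP, was likewise above the median of WT in 11 of the 13, with a log2 fold change of 0.049 ± 0.032 (unadjusted p = 0.127 in edgeR). Diablo passed in females alone (0.10 ± 0.039, unadjusted p = 0.0147 in edgeR) and without TIMP2 KO mouse 10 (unadjusted p = 0.0345 in edgeR). Htra2 and Apaf1 had log2 fold changes of 0.0071 ± 0.036 and -0.021 ± 0.049. Htra2 shares 43.7% of its exon bases with neighboring genes and Diablo 23.5%, and Cycs, Aifm1 and Casp8 share none.

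Casp8, the initiator caspase of the death receptors and the brake on necroptosis, had the largest fold change of the 39 tested genes. The gene (ENSMUSG00000026029, chromosome 1 from 58795374 to 58847503) had 32 to 119 raw counts per mouse. Its CPM ran from 1.70 through a median of 2.18 to 3.22 in TIMP2 KO and from 2.11 through 2.55 to 3.54 in WT mice. In TIMP2 KO 9 of 13 mice lay below the WT median, and the ranges overlapped widely. The log2 fold change was -0.18 ± 0.082 (95% interval -0.34 to -0.0098, unadjusted p = 0.0386 and adjusted p = 0.980 in edgeR). In males it was called alone of all members, with means of 2.28 ± 0.225 CPM (SD, n = 6) in TIMP2 KO and 2.72 ± 0.423 CPM (n = 10) in WT, while in females the means were 2.35 ± 0.571 (n = 7) and 2.54 ± 0.246 CPM (n = 7). The interaction had an unadjusted p of 0.343 in edgeR, so a difference between the sexes was not shown. The call was lost in 13 of 30 omissions of a single mouse (TIMP2 KO mice 3, 5, 10, 14, 15, 20, 27 and 30 and WT mice 6, 7, 23, 26 and 31), with an unadjusted p of up to 0.0738, and in limma voom (unadjusted p = 0.0803). It was also lost with sex and 8 surrogate variables in the fit, at a log2 fold change of -0.19 (unadjusted p = 0.0847 in edgeR), and in females alone (unadjusted p = 0.513 in edgeR).

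The other caspases were not called between genotypes. Casp2 had a log2 fold change of -0.0041 ± 0.051, Casp6 of 0.078 ± 0.081 and Casp9, the apoptosome's caspase, of -0.00090 ± 0.028. The interval of Casp9 reached from -0.057 to 0.055, within 1.1-fold in either direction. Cflar, which encodes the caspase-8 decoy FLIP and lies near Casp8 on chromosome 1, had a log2 fold change of -0.016 ± 0.037. The ratio of Casp8 to Cflar per kilobase was 0.471 ± 0.0997 (SD) in TIMP2 KO and 0.529 ± 0.0769 in WT mice, with overlapping ranges.

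**Figure D3:**
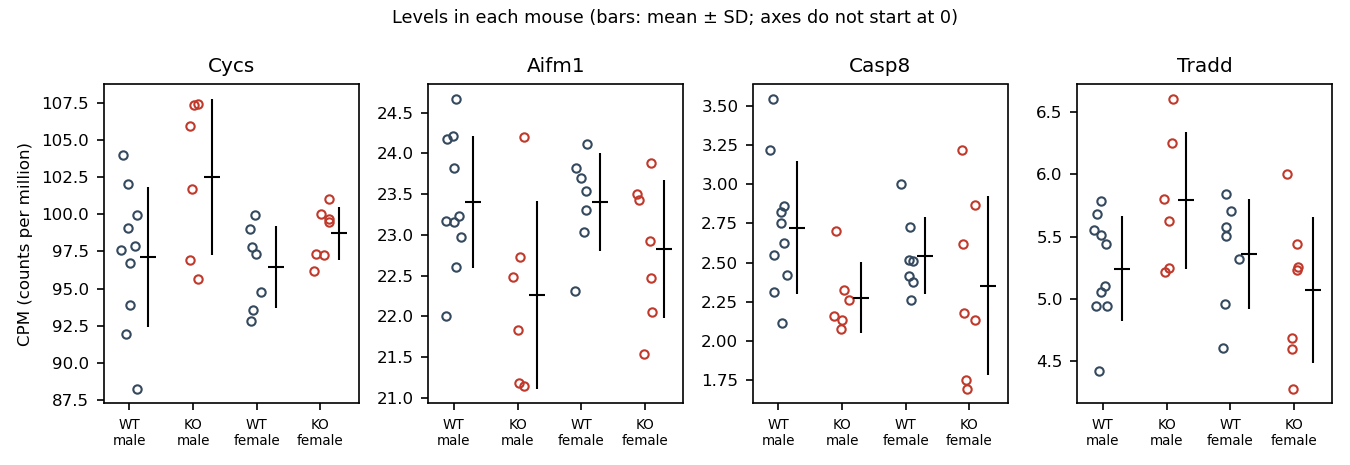
CPM of Cycs, Aifm1, Casp8 and Tradd in each mouse by sex and genotype (10 WT males, 6 TIMP2 KO males, 7 WT females and 7 TIMP2 KO females), with bars for mean ± SD and axes that do not start at 0. The genotypes overlap in both sexes for every gene, and Tradd has a higher TIMP2 KO mean in males (5.79 against 5.24 CPM) and a lower one in females (5.07 against 5.36 CPM).

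Among the inhibitors of apoptosis, 0 of 4 members passed the threshold. Xiap, the direct inhibitor of caspases, ran from 113 CPM through a median of 119.9 to 132 CPM in TIMP2 KO and from 119 through 124 to 132 CPM in WT mice. Of the TIMP2 KO mice, 10 of 13 lay below the WT median, and the log2 fold change was -0.038 ± 0.022 (unadjusted p = 0.0963 in edgeR). It passed without TIMP2 KO mouse 15 or 30 (smallest unadjusted p = 0.0372 in edgeR). Birc2 and Birc3, ubiquitin ligases of TNF signaling, had log2 fold changes of -0.014 ± 0.029 and 0.080 ± 0.12. Birc6, a very large inhibitor and ubiquitin-conjugating enzyme, differed by -0.0073 ± 0.062.

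The death receptors and adaptors also held 0 called members of 5. Fas, the receptor of FAS ligand, had 13 to 59 counts per mouse and ran from 0.737 through a median of 1.11 to 1.78 CPM in TIMP2 KO and from 0.573 through 1.06 to 1.52 CPM in WT mice. The interval of its log2 fold change, -0.10 to 0.40 around 0.15, was the widest of the 39 tested, so a moderate difference was not detectable at this depth. Tnfrsf1a (TNF receptor 1), Fadd and Tradd had log2 fold changes of 0.024 ± 0.049, -0.027 ± 0.074 and 0.031 ± 0.056.

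In the necroptosis arm, Ripk1 exceeded the WT median in 11 of the 13 TIMP2 KO mice. Its CPM ran from 3.52 through a median of 4.02 to 4.67 in TIMP2 KO and from 3.28 through 3.63 to 5.10 in WT mice, which held both the lowest and the highest value. The log2 fold change was 0.11 ± 0.060 (unadjusted p = 0.0758 in edgeR), and it passed the threshold with log2 total counts as a covariate (unadjusted p = 0.0418 in edgeR) with sex and 8 surrogate variables (unadjusted p = 0.0343 in edgeR) and with mouse number as a covariate (unadjusted p = 0.0228 in edgeR), and also without TIMP2 KO mouse 3 or WT mouse 31 (smallest unadjusted p = 0.0170 in edgeR). Without a filter on low counts, Ripk3 had a log2 fold change of 0.069 (95% interval -0.31 to 0.45, unadjusted p = 0.715 in edgeR) and Mlkl of -0.24 (95% interval -0.78 to 0.30, unadjusted p = 0.382 in edgeR). Mlkl had medians of 4 raw counts in TIMP2 KO and 5 in WT mice, so a moderate difference in it was not detectable at this depth.

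The p53 axis held 0 called members of 3. Trp53 encodes p53 and was the only member on the chromosome of Timp2, 48.7 Mb away, and its log2 fold change was 0.012 ± 0.039. Mdm2, the ubiquitin ligase that degrades p53, differed by 0.022 ± 0.027, and the ratio of Mdm2 to Trp53 per kilobase was 2.03 ± 0.171 (SD) in TIMP2 KO and 2.01 ± 0.174 in WT mice. Cdkn1a, the cell cycle inhibitor p21 with the spaced CATG pair shown above, ran from 3.58 through a median of 6.35 to 7.63 CPM in TIMP2 KO and from 4.16 through 5.59 to 7.35 CPM in WT mice. In TIMP2 KO 11 of 13 mice lay above the WT median while the lowest mouse of all was also TIMP2 KO, and the log2 fold change was 0.10 ± 0.081 (unadjusted p = 0.205 in edgeR). With sex and 8 surrogate variables in the fit its sign turned, at -0.059, and that of Fas, at -0.062. Without TIMP2 KO mouse 15, Cdkn1a had a log2 fold change of 0.16 (unadjusted p = 0.0303 in edgeR).

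For DNA fragmentation, Dffa and Dffb, which encode the inhibitor and the nuclease of an enzyme that cuts chromatin in dying cells, had log2 fold changes of -0.0021 ± 0.022 and -0.045 ± 0.061. Pdcd4 ran from 85.5 CPM through a median of 94.1 to 98.7 CPM in TIMP2 KO and from 85.0 through 96.7 to 104 CPM in WT mice, with a log2 fold change of -0.029 ± 0.023 (unadjusted p = 0.225 in edgeR). The ranges overlapped, and the highest values were those of WT mice.

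Across the wider cell death pathways, 96 of 109 further genes were tested between genotypes, of which 5 were higher and 2 lower at an unadjusted p under 0.05 by edgeR's quasi-likelihood test (7.29%) and 0 after adjustment. Over all genes 5.03% passed the unadjusted threshold, 2.47% higher and 2.56% lower. Higher were Bag3, a co-chaperone of stressed cells (log2 fold change 0.14 ± 0.045), the death receptor Tnfrsf25 (0.30 ± 0.14), the p53 relative Trp73 (0.17 ± 0.076), the p53 target Perp (0.19 ± 0.087) and the lysosomal nuclease Dnase2a (0.14 ± 0.063). Lower were Rnf31, a subunit of the linear ubiquitin ligase (-0.070 ± 0.034), and Mdm4, a partner of MDM2 (-0.070 ± 0.033). By group, the called genes were 1 of 10 genes listed with the BCL2 family, 0 of 11 other caspases and pyroptosis genes and 1 of 17 death receptor and TNF genes. They were also 1 of 16 necroptosis regulators, 3 of 26 p53 network genes and 1 of 16 mitochondrial and nuclease genes. The gene called in the BCL2 list was the co-chaperone Bag3, which is not itself a BCL2 protein. The median log2 fold change of the 96 was 0.0016. None of the 20 tested respiratory partners of cytochrome c (subunits of complexes III and IV, Cyc1 and Hccs) had an unadjusted p under 0.05 in edgeR, and their median log2 fold change was -0.0016.

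Between females and males, with genotype as a covariate, 2 of 39 members (5.13%) had an unadjusted p under 0.05 by edgeR's quasi-likelihood test, against 9.77% of all genes (5.14% higher and 4.63% lower in females). After adjustment 0 members passed (smallest adjusted p = 0.436 in edgeR), against 0.218% of all genes. The 2 genes, named after their values were seen, were both higher in females. Casp2, an initiator caspase linked to DNA damage, ran from 7.40 through a median of 8.42 to 10.4 CPM in females and from 6.87 through 7.801 to 8.86 CPM in males. Its log2 fold change was 0.11 ± 0.047 (unadjusted p = 0.0266 in edgeR), and 10 of 14 females lay above the male median. Cdkn1a ran from 5.00 through a median of 6.44 to 7.63 CPM in females and from 3.58 through 5.70 to 7.09 CPM in males, with a log2 fold change of 0.16 ± 0.077 (unadjusted p = 0.0432 in edgeR). The sexes overlapped in both genes. In limma voom Casp2 had an unadjusted p of 0.0791, and in edgeR it lost the call without WT mouse 23 or TIMP2 KO mouse 30 (highest unadjusted p = 0.0809). Cdkn1a lost it in 13 of 30 omissions of a single mouse (WT mice 12, 16, 19, 22, 28, 29 and 31 and TIMP2 KO mice 5, 8, 11, 15, 20 and 27), with an unadjusted p of up to 0.0959 in edgeR. Immediate early genes summed to a median of 477 CPM in females and 346 CPM in males, and 7 of 10 were higher in females at the unadjusted threshold. At the same threshold 3 of 6 astrocyte markers were higher in females, and 3 of 8 neuron markers and 4 of 20 respiratory partners of cytochrome c were lower. The part of these shifts in the Casp2 and Cdkn1a values was not tested.

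Ripk3, which did not pass the filter and is named after its values were seen, ran from 0.234 through a median of 0.424 to 0.590 CPM in females and from 0.144 through 0.297 to 0.456 CPM in males. The sexes overlapped, and 13 of 14 females lay above the male median. Without a filter on low counts, the log2 fold change of females against males was 0.48 ± 0.18 (95% interval 0.12 to 0.84, unadjusted p = 0.00941 and adjusted p = 0.473 in edgeR). Ripk3 passed the filter in 8 of the 30 omissions of a single mouse, all of TIMP2 KO mice. It was called in all 8 (highest unadjusted p = 0.0119, smallest adjusted p = 0.236 in edgeR). These fits share nearly all their mice with the fit without a filter and are no independent support. At 4 to 18 counts per mouse these values rest on few reads.

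The genotype difference itself depended on sex at an unadjusted p under 0.05 for 1 of 39 members, Tradd, against 2.57% of all genes (1.39% with a positive and 1.18% with a negative term), and for 0 members and 0 of all genes after adjustment (edgeR). Tradd, the adaptor of TNF receptor 1, ran from 5.22 through a median of 5.71 to 6.61 CPM in TIMP2 KO males and from 4.42 through 5.27 to 5.78 CPM in WT males. In females it ran from 4.28 through 5.23 to 6.00 CPM in TIMP2 KO and from 4.60 through 5.50 to 5.84 CPM in WT. The interaction term was -0.23 ± 0.11 (unadjusted p = 0.0415 in edgeR), with groups that overlapped in both sexes. With mouse number as a covariate it was -0.21 (unadjusted p = 0.0520 in edgeR). Bbc3 had the next smallest p among the members, with an interaction of -0.28 ± 0.14 (unadjusted p = 0.0506 in edgeR), and passed in DESeq2. Its means were 8.59 ± 1.49 CPM (SD, n = 6) in TIMP2 KO and 8.12 ± 1.09 (n = 10) in WT males, and 8.29 ± 0.743 (n = 7) and 9.55 ± 1.37 (n = 7) in females.

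The members also differed in how much they varied between mice of a group. The BCV ran from 3.14% for Aifm1 to 16.4% for Birc3, with a median of 6.13%. Of the 39, 33 had a BCV no higher than the trend over genes of the same level. The share of all genes below that trend was not counted, so this count describes the members alone. The BCV is edgeR's estimate for each gene, which is itself drawn toward the trend. The 6 above that trend were Birc6, Bbc3, Cdkn1a, Apaf1, Birc3 and Pmaip1, and Birc6 stood out with a BCV of 11.7% against 5.99% for its level, a ratio of 1.96. The next were Bbc3 at a ratio of 1.28, Cdkn1a at 1.25 and Apaf1 at 1.2. Birc6 ran from 79.9 through a median of 86.8 to 122 CPM in TIMP2 KO and from 79.5 through 94.5 to 117 CPM in WT mice, with SDs of 13.9 and 11.6 CPM.

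Birc6 has the longest exon sequence of the members, 25772 bases, and libraries differed in how far they leaned toward long genes. This lean was measured in each mouse as the slope, over 16406 genes other than the members, of the deviation from a gene's mean log2 CPM on the log2 of its exon length. It ran from -0.028 to 0.030 in TIMP2 KO and from -0.019 to 0.026 in WT mice, with medians of -0.0053 and -0.0025. As a description over 30 mice, Birc6 levels followed the lean with a Pearson r of 0.70, which was 0.61 within TIMP2 KO, 0.80 within WT and 0.61 without the 2 mice of most extreme lean. Cflar, with 12669 exon bases, had an r of 0.62. At the other end were Htra2 (-0.48), Endog (-0.46), Bad (-0.45) and Cycs (-0.44), all with shorter exon sequence than Birc6 and Cflar. Not all short members were at this end. Fas and Bak1, with 2062 and 2407 exon bases, had an r of 0.0046 and 0.036. With the lean as a covariate, an alternative added after the data were seen, the same 3 members were called between genotypes and the log2 fold changes of Cycs, Aifm1 and Casp8 were 0.048, -0.055 and -0.19. TIMP2 KO mouse 30 had the strongest lean toward long genes of all 30 mice. TIMP2 KO mouse 14 had the highest Birc6 level, 122 CPM, with a lean of -0.010.

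Birc6 also differed with the number the labels give each mouse. In the 12 mice numbered 1 to 12 (6 of each genotype) it lay between 79.5 and 89.1 CPM, and in the 18 numbered 14 to 32 (7 TIMP2 KO and 11 WT) between 86.0 and 122 CPM. The length lean lay between -0.028 and 0.0034 in the former and between -0.010 and 0.030 in the latter. The labels do not say what the number marks, and these blocks were chosen after the values were seen. The study names the date of harvest or isolation as a source of variation, these dates are not in the labels, and their part was not tested. Within the lower numbers, the log2 ratio of the mean CPM of TIMP2 KO to WT was 0.060 for Cycs, -0.016 for Aifm1 and -0.034 for Casp8, and within the higher numbers 0.041, -0.091 and -0.33. With mouse number as a linear covariate, an alternative added after the data were seen, Cycs, Aifm1 and Casp8 were called between genotypes and so was Ripk1 (log2 fold changes 0.047, -0.060, -0.19 and 0.14, edgeR).

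**Figure D4:**
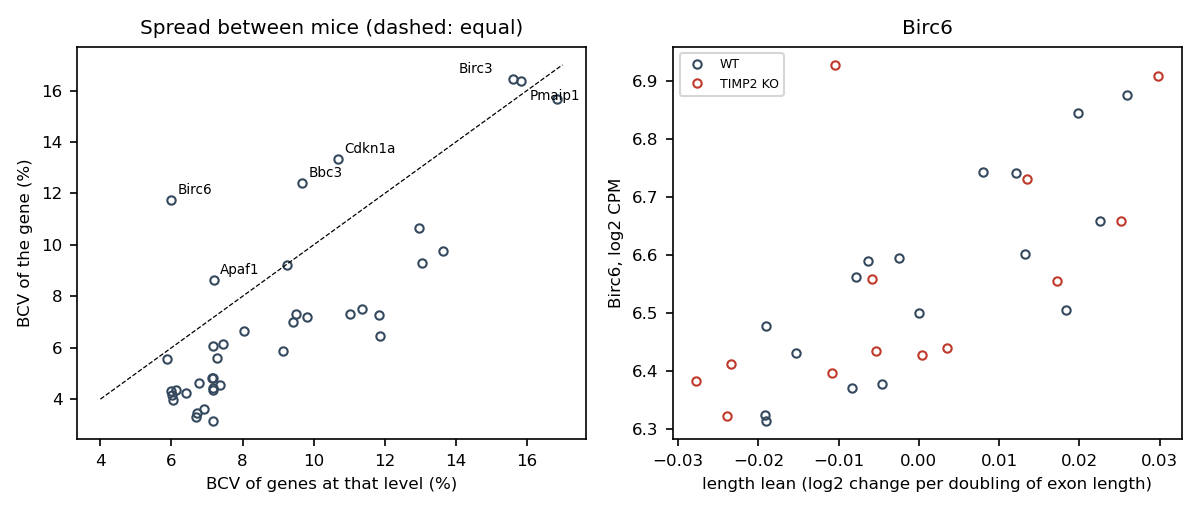
Left, the BCV of each of the 39 tested genes against the BCV of genes at the same level, both in %, with a dashed line of equality. Right, Birc6 in log2 CPM against the length lean of each mouse. Birc6 lies farthest above the line, and its level is higher in libraries that lean toward long genes.

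Members were then set beside markers of the cell types in the hippocampus and beside genes of acute responses, as correlations over the 30 mice with the mean log2 CPM of each list. Of 390 pairs (39 members and 10 lists), 40 had an unadjusted p under 0.05 by a permutation test with 100000 resamples and 0 an adjusted p under 0.05 after Benjamini-Hochberg adjustment (smallest 0.0605). The strongest was Mcl1, a short-lived antiapoptotic protein, with the immediate early genes, at a Pearson r of 0.63 (permutation p = 0.00030) and a Spearman rho of 0.60 (permutation p = 0.00057). It was 0.62 without the 2 mice farthest from the median of the list, 0.78 within TIMP2 KO and 0.54 within WT mice. With the means of the sex and genotype groups removed, r was 0.71 and passed the adjustment (adjusted permutation p = 0.0195). Mcl1 thus varied with a list that was itself higher in TIMP2 KO, while Mcl1 did not pass the test between genotypes.

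Endog and Cycs both varied with the respiratory partners of cytochrome c. Endog had an r of 0.62 (permutation p = 0.00031) and a rho of 0.58 (permutation p = 0.00104), with 0.45 without the 2 farthest mice, 0.74 within TIMP2 KO and 0.61 within WT mice. With group means removed, r was 0.69 and passed the adjustment (adjusted permutation p = 0.0195). Cycs had an r of 0.49 (permutation p = 0.00555) and a rho of 0.66 (permutation p = 0.00015), and r was 0.74 without the 2 farthest mice. The r of Cycs was 0.86 within TIMP2 KO (n = 13, adjusted permutation p = 0.0215) and 0.25 within WT mice (n = 17, permutation p = 0.326). The WT value includes WT mouse 6, which had the lowest Cycs of all 30 mice, 6.46 log2 CPM, at a high list mean of 7.09. Its part in the low WT value was not tested, nor was the difference between the genotypes. Casp9 went the opposite way within TIMP2 KO, with an r of -0.89 (n = 13, adjusted permutation p = 0.0195), against -0.054 within WT mice. This difference between the genotypes was not tested either. Endog and Cycs also ran with the length lean, in the values given above. Casp9 had an r with the lean of 0.65 within TIMP2 KO and -0.087 within WT mice. The part of the lean in all these relations was not tested.

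**Figure D5:**
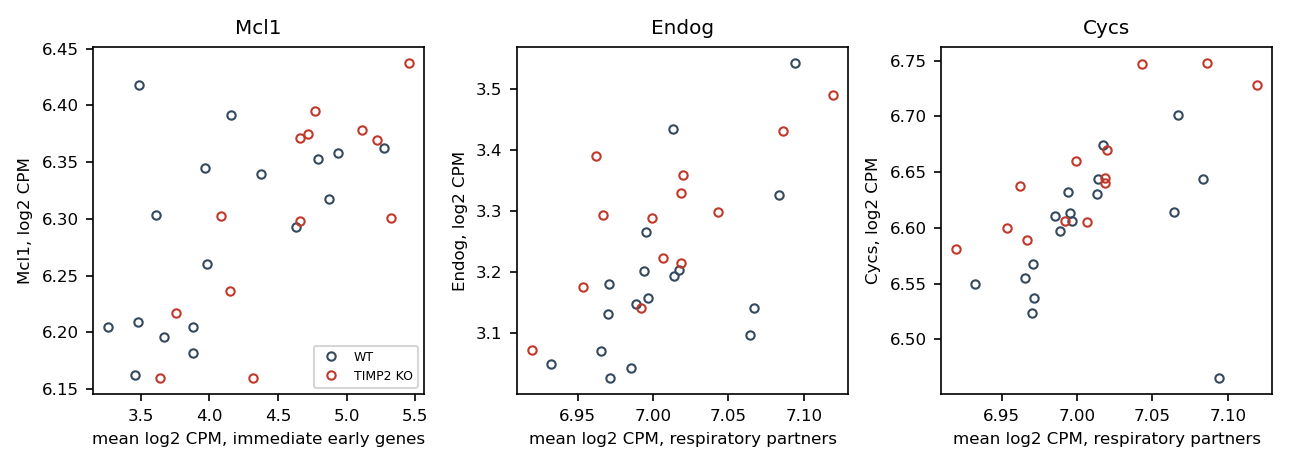
Mcl1 against the mean of 10 immediate early genes, and Endog and Cycs against the mean of 20 respiratory partners, all in log2 CPM, with 1 point per mouse (dark WT, red TIMP2 KO). All 3 relations slope upward, with r of 0.63, 0.62 and 0.49. In the right panel WT mouse 6, with low Cycs, lies far below the others.

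With the cell type markers, r over 39 pairs each lay between -0.57 and 0.40 for neurons, -0.48 and 0.29 for astrocytes, -0.47 and 0.50 for oligodendrocytes, -0.46 and 0.43 for microglia, -0.32 and 0.56 for endothelial cells and -0.30 and 0.29 for red blood cells. For the choroid plexus markers, which were highest in a few TIMP2 KO mice, r lay between -0.30 and 0.30. For the glucocorticoid-responsive genes it lay between -0.44 and 0.53. None of these pairs passed the adjustment by the permutation test over all 30 mice. The strongest of them was Endog with the neuron markers, at an r of -0.57 (permutation p = 0.00109, adjusted 0.134) and a rho of -0.54 (permutation p = 0.00255). It was -0.55 without the 2 farthest mice, -0.45 within TIMP2 KO, -0.59 within WT mice and -0.58 with group means removed. Pmaip1 with endothelial markers, at 0.56, was 0.31 without the 2 farthest mice.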

How the data were processed

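Hippocampal RNA of 13 TIMP2 KO and 17 WT mice was measured by paired-end sequencing of poly(A)-selected libraries. According to the submitters' processing notes, the authors trimmed reads with Trimmomatic 0.36, aligned them to GRCm38 with STAR 2.5.2b and counted them per gene with featureCounts of Subread 1.5.2. The deposited values are raw counts, without normalization. The strand setting and the annotation release are not given in the sources used here. All 30 columns were matched to a mouse by its title. Total counts were 18345517 to 41081083 per mouse, and counting error weighs most for members at low counts.

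From these counts, edgeR 4.0.16 (R 4.3.3) gave TMM factors, the filterByExpr filter and a quasi-likelihood test over all 16486 genes that passed, with Benjamini-Hochberg adjustment over all of them. The genotypes were compared with both sexes pooled and without covariates, and genes were called at the study's threshold, an unadjusted p under 0.05, and again after adjustment. SE is the log2 fold change over the square root of the F statistic. Log2 CPM used a prior count of 2. Exon lengths and overlaps are from GENCODE M21, in which 259 of the 49315 identifiers had no entry. Of the 41 members, 14 share exon bases with another gene. The annotated pseudogenes Cycs-ps2 and Bnip3l-ps had 0 to 2 and 8 to 33 counts per mouse. Promoter windows are from RefSeq (GRCm38.p6). The test was tried on simulated counts. The members, gene lists and tests were chosen with earlier results of these data known. The genes given full statistics were those with an unadjusted p under 0.05 between genotypes or in the interaction, the member of each role with the smallest p between genotypes and, for levels, the highest and lowest of each role. Casp2, Ripk3, Endog, Diablo and Bbc3 fall outside this rule and were given further values after these were seen.

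The alternatives were DESeq2 1.42.0, RLE size factors, omission of the filter, a minimum of 10 counts in each of the mice, sex, log2 total counts, or sex with 8 surrogate variables (sva 3.50.0) as covariates, each sex alone, limma 3.58.1 voom with sample weights, and leaving out each mouse in turn. Each mouse is taken as a separate animal from its labels. The study corrected its co-expression analysis for the date of harvest or isolation. Such dates and litters are not in the labels used here and could not be fitted. The length lean and the mouse number were added as covariates after the data were seen.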

Additional observations from a re-analysis of the deposited data

Results flagged for a closer look

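In 68 groups of mice (17 named genes in the 4 sex and genotype groups), the highest or lowest mouse was compared with the rest of its group by Dixon's criterion, by which chance alone picks out about 3.4 of 68 groups. It picked out 2, both from TIMP2 KO mouse 30, a female. In this mouse Bad was at 4.15 log2 CPM, where the other TIMP2 KO females lay between 4.43 and 4.50. Birc6 was at 6.91 log2 CPM in the same mouse, where the others lay between 6.38 and 6.56. This library also had the strongest lean toward long genes of all 30, 0.030. Without it, the log2 fold change of Bad between genotypes was 0.060 (unadjusted p = 0.0548 in edgeR).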

How the results depend on the processing

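No paired analysis was possible because the labels give the groups no shared replicate numbers. Of the log2 fold changes of named members, 143 values under the alternatives kept their direction and side of the unadjusted threshold, 13 fell short of it, 5 newly passed it and 5 turned sign. Those that turned were Bcl2 (0.0017) and Tradd (-0.082) in females alone and Cdkn1a (-0.059), Fas (-0.062) and Pdcd4 (0.0058) with sex and 8 surrogate variables. Between genotypes, 1971 of 33550 genes had an unadjusted p under 0.05 without a filter and 540 of 16607 in males alone (edgeR). Of 39 members, 5 did with log2 total counts as a covariate (adding Ripk1 and Endog), against 838 of 16486 genes. In males alone 1 of 39 members did. Without a filter, 2703 of 33550 genes passed between the sexes and 1434 of 33550 in the interaction. The main fits tested 16486 genes, so counts without a filter are not comparable with theirs. The interaction picked out 2 members (Tradd and Bbc3) without a filter and in DESeq2, and 0 with mouse number as a covariate. Of the correlation pairs, 2 passed the adjustment in TIMP2 KO alone and 2 with group means removed. Omitting a single mouse gave 707 to 962 genes and 1 to 5 members between genotypes, and 1421 to 1698 genes and 1 to 4 members between the sexes. Between genotypes, 1 member was called without WT mouse 7 or TIMP2 KO mouse 14, 20 or 27, and 5 without TIMP2 KO mouse 15 or 25. Between the sexes, 1 member was called without TIMP2 KO mouse 8 or WT mouse 12, 16, 19, 23, 29 or 31, and 4 without WT mouse 4 or TIMP2 KO mouse 14. No alternative called a member after adjustment. The cause of these shifts was not tested. Depth limits the low members: Fas, Birc3, Pmaip1, Ripk3 and Mlkl had at most 75 counts in every mouse.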
